A study of Homo sapiens with 24 samples.

Results

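The genes of the centromere and kinetochore were followed in 24 Clariom D human arrays of SU-DHL-4 and DG-75 cells, both B-cell lymphoma lines. A list of 36 genes was matched by symbol to the table of log2 expression values, and all 36 were found, with 1 row each among 25575 rows and 25161 symbols. By role, 15 were genes of the inner centromere, 3 were loading factors of the centromeric histone, 16 were genes of the outer kinetochore and 2 were the shugoshins SGO1 and SGO2. SU-DHL-4 is an established line of diffuse large B-cell lymphoma and DG-75 an established line of Burkitt lymphoma. Each line was kept for 72 h with the solvent DMSO as control, with 1 µM Entospletinib (Ento), with 0.01 µM AZD5153 (AZD), or with both compounds at these doses (Ento+AZD), which gave 8 groups of 3 biological replicates. Ento blocks the kinase SYK below the B-cell receptor, and AZD is a bivalent blocker of BET proteins, readers of acetylated chromatin. No group carried an engineered allele, and each lymphoma type was represented by 1 line, so line and lymphoma type cannot be told apart.

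The centromere is the stretch of a chromosome at which spindle fibres attach, and it is marked by nucleosomes that hold the histone variant CENP-A in place of histone H3. A network of proteins, the constitutive centromere-associated network, sits on these nucleosomes and carries the outer kinetochore, which is assembled for mitosis and binds microtubules through the Ndc80 complex. New CENP-A is placed by the chaperone HJURP after the Mis18 proteins have prepared the site, and shugoshins protect the cohesion of sister chromatids at the centromere. Many of these genes are transcribed mainly in cells that are about to divide, so their transcripts are part of the usual signature of proliferating B cells.

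Markers of cell types were read as a description, since the level of 1 gene cannot be set against that of another on these arrays. The B-cell markers MS4A1, CD79A, CD79B, PAX5 and CD22 had gene medians of 8.23 to 11.88 on the log2 scale, the 4 T-cell markers 2.27 to 4.23, the 4 monocyte markers 2.61 to 5.82, the 3 epithelial markers 2.41 to 5.13 and the 3 fibroblast markers 5.88 to 7.10. MS4A1 had a median of 11.62 in SU-DHL-4 (lowest array 11.27) and of 7.47 in DG-75 (lowest array 6.22). Among the fibroblast markers, decorin (DCN) stood at 8.49 to 9.90 in SU-DHL-4 and at 4.31 to 5.41 in DG-75, while COL1A1 stayed between 5.49 and 6.17 in both lines, and the part of DCN in the results was not tested. Array medians lay between 4.89 and 5.14 and replicate arrays correlated at 0.981 to 0.993 over all rows. The Ento and Ento+AZD arrays numbered 2 of SU-DHL-4 stood apart in the genes described here. Averaged over the 36 genes, Ento replicate 2 lay 0.56 below the mean of the line (-0.56) against 0.50 and 0.56 above it for the other Ento arrays, and Ento+AZD replicate 2 lay at -1.14 against -0.11 and -0.04. Counts and medians of this line that use these arrays are therefore also given with both omitted, or with Ento+AZD replicate 2 omitted, for the main comparisons, classes, lists and promoter groups. The omission of both together was chosen after the data were seen. P-values measure the spread left between arrays, pooled over all groups of a fit. Except between untreated lines, the offset of each replicate number was removed first. In bulk samples fewer cells in division and less RNA per cell cannot be told apart.

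A gene was called at a Benjamini-Hochberg adjusted p under 0.05 in limma together with a fold change over 2, which is a log2 change beyond 1. Each change is a log2 fold change, given with its standard error (SE) where the gene was called against DMSO within a line with all arrays. Levels of different genes are not set against each other, because array probes differ in brightness. Counts from fits with arrays left out, where given without a share of all rows, describe only how stable the calls were.

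The promoters of NDC80, NUF2, SPC25 and HJURP are shown because these were the 3 called genes of the Ndc80 complex and the 1 called loading gene in SU-DHL-4 under Ento+AZD, and because each holds a cell cycle genes homology region (CHR), an element through which the MuvB core of the DREAM complex binds genes of the late cell cycle. Each run gives 250 bases before and 30 bases after the annotated start, in the direction of transcription, from RefSeq on build GRCh38.p14. Capitals mark the CHR letters TTTGAA and the CCAAT box, on either strand, so that TTCAAA and ATTGG are the same letters read from the other strand. The windows are chr18:2571307-2571586 on the plus strand for NDC80, chr1:163321704-163321983 on the plus strand for NUF2, chr2:168890401-168890680 on the minus strand for SPC25 and chr2:233854506-233854785 on the minus strand for HJURP.
NDC80: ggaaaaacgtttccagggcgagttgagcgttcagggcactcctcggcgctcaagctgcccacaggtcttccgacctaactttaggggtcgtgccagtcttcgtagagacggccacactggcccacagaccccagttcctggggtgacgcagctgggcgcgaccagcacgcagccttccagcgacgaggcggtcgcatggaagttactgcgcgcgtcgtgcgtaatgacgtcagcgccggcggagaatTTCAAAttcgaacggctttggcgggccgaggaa
NUF2: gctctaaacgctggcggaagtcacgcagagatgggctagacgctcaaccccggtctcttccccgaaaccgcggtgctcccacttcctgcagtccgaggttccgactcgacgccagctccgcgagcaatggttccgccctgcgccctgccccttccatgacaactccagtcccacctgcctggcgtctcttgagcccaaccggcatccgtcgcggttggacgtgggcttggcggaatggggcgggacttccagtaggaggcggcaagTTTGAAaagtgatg
SPC25: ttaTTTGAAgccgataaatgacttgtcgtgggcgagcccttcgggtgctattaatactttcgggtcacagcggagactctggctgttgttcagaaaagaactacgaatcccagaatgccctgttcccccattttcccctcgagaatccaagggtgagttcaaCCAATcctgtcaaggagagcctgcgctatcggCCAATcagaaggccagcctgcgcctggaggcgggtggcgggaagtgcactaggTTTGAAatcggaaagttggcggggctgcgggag
HJURP: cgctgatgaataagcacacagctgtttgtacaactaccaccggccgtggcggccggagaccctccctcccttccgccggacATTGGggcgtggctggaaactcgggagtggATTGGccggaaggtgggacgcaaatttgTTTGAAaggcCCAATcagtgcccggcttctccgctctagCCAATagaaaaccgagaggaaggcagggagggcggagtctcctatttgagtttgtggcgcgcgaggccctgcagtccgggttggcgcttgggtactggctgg
In NDC80 the CHR ran on the opposite strand with its first base 3 bases before the start, and in NUF2 it began at base 17 of the transcript. SPC25 had a CHR 3 bases and another 247 bases before the start, beside CCAAT boxes at 88 and 56 bases. HJURP combined 1 CHR at 111 bases with 4 CCAAT boxes between 169 and 72 bases before the start. These matches are letters in a window, not measured binding.

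The comparison of Ento with DMSO asked what SYK inhibition alone did to these genes. In SU-DHL-4 limma called 0 of the 36 genes, where 0.0117% of all rows were called lower, with 2 of the 36 (5.56%) at an unadjusted p under 0.05, beside 8.59% of all rows. These were CENPH, which links the inner network to the outer kinetochore, with a change of -0.59 (adjusted p = 0.426), and the mitotic motor gene CENPE with -0.51 (adjusted p = 0.546). In DG-75 limma called 0 as well, against 0% of all rows lower, with 1 gene at an unadjusted p under 0.05 (2.81% of all rows), CENPC (-0.36, adjusted p = 1). The median change of the 36 genes under Ento was -0.24 in SU-DHL-4, beside -0.06 over all rows, and -0.03 in DG-75, beside -0.00 over all rows. The value of SU-DHL-4 rested on 1 array. It was -0.08 without Ento replicate 2, with 23 of 36 changes below 0 in place of 32, and -0.01 with 19 of 36 below 0 when Ento+AZD replicate 2 was omitted as well, which bears on the Ento change through the replicate term of the model. With array medians subtracted it was -0.12. No Ento group of SU-DHL-4 lay below its DMSO group without overlap for any of the 36 genes, against 9.33% of all rows, while 2 genes, CENPA (-0.13) and CENPC, did so in DG-75, against 3.56%. CENPC was named after its values were seen.

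The next comparison, AZD with DMSO, addressed BET inhibition. The median of the 36 genes was -0.57 for SU-DHL-4 and -0.66 for DG-75, beside -0.08 and -0.06 over all rows, and 35 of the 36 changes lay below 0 in each line, against 63.9% and 60.5% of all rows. Few of these changes passed the test. In SU-DHL-4 limma called 0 genes (0.18% of all rows lower, 23 of the 36 at an unadjusted p under 0.05, beside 11.5% of all rows), and NUF2 alone (-1.07, adjusted p = 0.0295) with the Ento and Ento+AZD arrays numbered 2 omitted. In DG-75 it called MIS18A alone, 1 of 36 or 2.78%, beside 0.164% of all rows. The AZD arrays lay below all DMSO arrays for 21 of 36 genes in SU-DHL-4 and for 24 of 36 in DG-75, against 12.9% and 14.6% of all rows.

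Ento+AZD was compared with DMSO to follow joint inhibition. In SU-DHL-4, 13 of the 36 genes (36.1%) were called lower, beside 1.09% of all rows. All 36 genes lay among the 12788 rows at or above the median level, whereas a share of all rows also counts rows of low level. They were CENPA, CENPH, CENPI and CENPU of the inner centromere, the loading gene HJURP, NDC80, NUF2, SPC25, SKA1, SKA3, CENPE and CENPF of the outer kinetochore, and SGO2. In DG-75, 6 genes (16.7%) were called lower, beside 0.708% of all rows, namely CENPI, CENPU, CENPW, MIS18A, NDC80 and NUF2. None of the 36 genes was called higher in any comparison between treatments. CENPI, CENPU, NDC80 and NUF2 were called in both lines, which is 30.8% of the SU-DHL-4 calls and 66.7% of the DG-75 calls. The median change was -0.87 for SU-DHL-4 and -0.82 for DG-75, beside -0.08 and -0.07 over all rows. Groups did not overlap for 26 of 36 genes in SU-DHL-4 (16% of all rows), again 26 without Ento+AZD replicate 2 (22% of all rows), while DG-75 had 33 of 36 without overlap (14% of all rows).

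**Figure D1:**
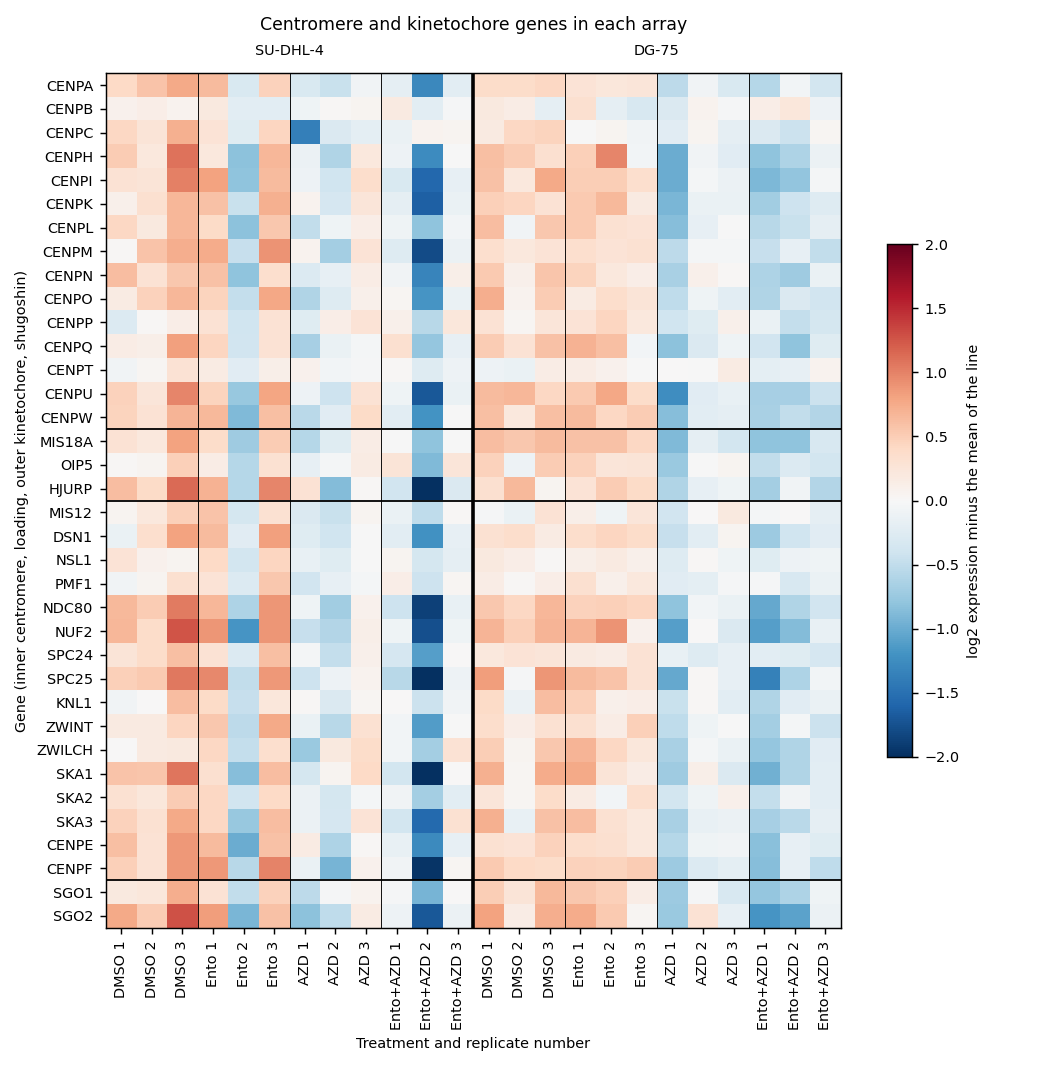
Log2 expression of the 36 genes (vertical) in each of the 24 arrays (horizontal, by line, treatment and replicate number), as the difference from the mean of the gene in that line, with lines between classes of genes and colours capped at 2 in either direction. The 6 AZD and Ento+AZD columns of DG-75 are mostly blue (mean -0.62 to -0.07), those of SU-DHL-4 range from AZD replicate 3 at 0.13 and Ento+AZD replicate 3 at -0.04 to Ento+AZD replicate 2, and the arrays numbered 2 of Ento and Ento+AZD in SU-DHL-4 are bluer than their replicates, at -0.56 and -1.14 on average.

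The count of 13 in SU-DHL-4 rested on single arrays. It dropped to 1 when Ento+AZD replicate 2 was omitted, where HJURP was the gene still called (-1.37, adjusted p = 0.0474), and to 1 when DMSO replicate 2 was omitted, again HJURP (-1.31, adjusted p = 0.0469). Omission of DMSO replicate 3 left 2 calls, of Ento+AZD replicate 3 left 3 and of Ento+AZD replicate 1 left 8. With the Ento and Ento+AZD arrays numbered 2 omitted together, 3 calls were left, HJURP (-1.30), NDC80 (-1.18) and SPC25 (-1.04), and the median of the 36 genes was -0.56. Without all 4 arrays numbered 2 it was 1, NDC80 with -1.12 (adjusted p = 0.0487), and without all arrays numbered 3 it was 0. The 13 calls also needed the replicate number in the model, since 0 of 36 genes passed without that block. In DG-75 the count of 6 became 0 when DMSO replicate 1, DMSO replicate 3, Ento+AZD replicate 1 or all arrays of any replicate number were omitted. Omission of Ento+AZD replicate 2 left 1 call, and of Ento replicate 2 left 3. The share of all rows called lower in SU-DHL-4 moved too, from 1.09% to 0.266% without Ento+AZD replicate 2. With Ento replicate 2 omitted as well it was 0.508%. Shares for the other omissions are not given here. The medians moved less, staying between -1.06 and -0.56 in SU-DHL-4 and between -0.95 and -0.62 in DG-75 in the 15 fits of each line with an array or a replicate number left out.

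In the inner centromere, CENPA encodes the centromeric histone itself. In SU-DHL-4 it measured 7.19, 7.37 and 7.56 under DMSO for replicates 1 to 3, 7.42, 6.49 and 7.25 under Ento, 6.49, 6.34 and 6.71 under AZD, and 6.60, 5.50 and 6.57 under Ento+AZD. In DG-75 the DMSO arrays gave 7.56, 7.57 and 7.62, the AZD arrays 6.68, 7.13 and 6.90 and the Ento+AZD arrays 6.63, 7.15 and 6.84. AZD and Ento+AZD arrays were below all DMSO arrays in both lines. CENPA fell by 1.15 in SU-DHL-4 under Ento+AZD (SE 0.219, adjusted p = 0.0189), and its change in DG-75 was -0.71 (SE 0.146, adjusted p = 0.0342), short of the fold change minimum.

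CENPI, CENPH and CENPU belong to the network that sits on the CENP-A nucleosome. CENPI read 6.98, 6.96 and 7.70 under DMSO and 6.38, 5.12 and 6.53 under Ento+AZD in SU-DHL-4, and 7.63, 7.26 and 7.80 against 6.14, 6.26 and 7.00 in DG-75. For CENPU the SU-DHL-4 arrays gave 8.75, 8.54 and 9.27 under DMSO and 8.21, 6.60 and 8.16 under Ento+AZD, and the DG-75 arrays 8.90, 8.92 and 8.68 against 7.59, 7.58 and 7.82. Neither gene overlapped between DMSO and Ento+AZD in either line, and in SU-DHL-4 the lowest array was replicate 2 each time. CENPI fell by 1.20 in SU-DHL-4 (SE 0.252, adjusted p = 0.0293) and by 1.09 in DG-75 (SE 0.245, adjusted p = 0.0447). CENPU fell by 1.20 (SE 0.238, adjusted p = 0.0223) and by 1.16 (SE 0.233, adjusted p = 0.0312). Under AZD alone CENPU in DG-75 was at 7.01, 8.02 and 8.10, a change of -1.12 that missed the threshold (adjusted p = 0.0686). CENPH went from 7.82, 7.52 and 8.40 to 7.21, 6.06 and 7.30 in SU-DHL-4, all below DMSO, and fell by 1.06 (SE 0.182, adjusted p = 0.0121). Its DG-75 arrays were 7.90, 7.79 and 7.61 under DMSO and 6.48, 6.68 and 7.17 under Ento+AZD, with no overlap and a change of -0.99 (adjusted p = 0.0904).

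CENPW, the histone-fold partner of CENPT, was called in DG-75. Its DG-75 arrays gave 7.96, 7.56 and 7.96 under DMSO, 7.99, 7.77 and 7.86 under Ento, 6.51, 7.14 and 7.17 under AZD and 6.70, 6.86 and 6.76 under Ento+AZD, so that the AZD and Ento+AZD arrays were below all others. It fell by 1.05 (SE 0.189, adjusted p = 0.0221). In SU-DHL-4 it went from 7.39, 7.24 and 7.63 to 6.74, 5.75 and 6.94, also without overlap, with a change of -0.94 (adjusted p = 0.108). CENPT itself had a change of -0.20 in SU-DHL-4 (adjusted p = 0.625) and of -0.07 in DG-75 (adjusted p = 0.869).

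CENPB, which binds a sequence motif of centromeric satellite DNA, and CENPP, a member of the CENP-O group of the network, had the smallest changes of their class in SU-DHL-4. CENPB read 5.35, 5.39 and 5.33 under DMSO and 5.43, 5.05 and 5.24 under Ento+AZD in SU-DHL-4, and 5.32, 5.26 and 4.94 against 5.25, 5.35 and 5.02 in DG-75. The groups overlapped in both lines, with changes of -0.12 (95% interval -0.45 to 0.22) and 0.03 (95% interval -0.35 to 0.42), and the sign in SU-DHL-4 turned under both other scalings of the arrays. CENPP went from 6.67, 6.97 and 7.08 to 7.05, 6.39 and 7.17 in SU-DHL-4, with overlap, a change of -0.04 (95% interval -0.50 to 0.42) that also turned under both other scalings. In DG-75 it went from 6.87, 6.62 and 6.82 to 6.46, 6.11 and 6.24, without overlap, a change of -0.50 (adjusted p = 0.149). The other 7 inner genes, CENPC, CENPK, CENPL, CENPM, CENPN, CENPO and CENPQ, changed by -1.17 (CENPM) to -0.46 (CENPC) in SU-DHL-4 and by -0.94 (CENPQ) to -0.58 (CENPC) in DG-75 and were not called. CENPC, which bridges the CENP-A nucleosome to the outer kinetochore, differed from this pattern under AZD in SU-DHL-4, where it read 5.92, 6.99 and 7.08 against 7.68, 7.54 and 7.99 under DMSO and 7.15, 7.34 and 7.34 under Ento+AZD. All AZD arrays were below all DMSO arrays, replicate 1 by most, and the change of -1.07 did not pass (adjusted p = 0.108).

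Among the loading factors, HJURP, the chaperone that deposits CENP-A, had the largest change of its class in SU-DHL-4. The line gave 9.85, 9.63 and 10.36 under DMSO, 9.94, 8.67 and 10.22 under Ento, 9.53, 8.37 and 9.26 under AZD and 8.85, 7.22 and 8.95 under Ento+AZD. In DG-75 the values were 10.07, 10.40 and 9.81 under DMSO, 10.03, 10.26 and 10.14 under Ento, 9.15, 9.60 and 9.66 under AZD and 9.08, 9.68 and 9.16 under Ento+AZD. Ento+AZD arrays were below all DMSO arrays in both lines and AZD arrays too, while Ento arrays overlapped with DMSO. HJURP fell by 1.61 in SU-DHL-4 (SE 0.233, adjusted p = 0.00597), which is 3.05-fold lower, and was called in 13 of 15 fits with arrays left out. The change in DG-75 was -0.79 (SE 0.163, adjusted p = 0.0351).

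MIS18A, a subunit of the Mis18 complex that prepares the centromere for new CENP-A, had its larger change in DG-75. Its DG-75 arrays lay at 8.26, 8.19 and 8.28 under DMSO, at 8.23, 8.23 and 8.06 under Ento, at 6.77, 7.46 and 7.27 under AZD and at 6.84, 6.84 and 7.33 under Ento+AZD. The SU-DHL-4 arrays lay at 7.54, 7.47 and 8.06 under DMSO, at 7.62, 6.54 and 7.76 under Ento, at 6.69, 7.01 and 7.40 under AZD and at 7.24, 6.45 and 7.24 under Ento+AZD. In DG-75 every array with AZD was below every array without it, and in SU-DHL-4 the AZD and Ento+AZD arrays were below all DMSO arrays. MIS18A fell in DG-75 by 1.08 under AZD (SE 0.184, adjusted p = 0.0487) and by 1.24 under Ento+AZD (SE 0.184, adjusted p = 0.0162). The changes in SU-DHL-4 were -0.66 and -0.71 (adjusted p = 0.284 and 0.144). The call under AZD alone was kept in 1 of 15 fits with arrays left out and the call under Ento+AZD in 8 of 15. OIP5, the Mis18 subunit also known as Mis18-beta, read 5.90, 5.94 and 6.35 under DMSO and 6.15, 5.00 and 6.12 under Ento+AZD in SU-DHL-4, and 6.89, 6.33 and 6.94 against 5.94, 6.15 and 6.06 in DG-75. Its groups overlapped in SU-DHL-4 and not in DG-75, with changes of -0.31 (adjusted p = 0.599) and -0.67 (adjusted p = 0.157).

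In the outer kinetochore, the Ndc80 complex grips microtubules. NDC80, its namesake, read 9.59, 9.46 and 9.98 under DMSO, 9.61, 8.32 and 9.83 under Ento, 8.86, 8.25 and 9.03 under AZD and 8.54, 7.07 and 8.80 under Ento+AZD in SU-DHL-4. In DG-75 it read 9.32, 9.19 and 9.43 under DMSO, 9.24, 9.25 and 9.20 under Ento, 7.97, 8.72 and 8.64 under AZD and 7.76, 8.18 and 8.40 under Ento+AZD. In both lines every AZD and Ento+AZD array was below every DMSO array. NDC80 fell under Ento+AZD by 1.54 in SU-DHL-4 (SE 0.233, adjusted p = 0.00711) and by 1.20 in DG-75 (SE 0.181, adjusted p = 0.0169). It was called in 12 of 15 and 8 of 15 fits with arrays left out.

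NUF2 is the partner of NDC80 at the microtubule-binding end. The SU-DHL-4 arrays were 8.37, 8.08 and 8.96 under DMSO, 8.59, 6.54 and 8.60 under Ento, 7.25, 7.12 and 7.83 under AZD and 7.63, 5.95 and 7.62 under Ento+AZD. Those of DG-75 were 9.23, 9.02 and 9.22 under DMSO, 9.22, 9.45 and 8.63 under Ento, 7.44, 8.55 and 8.25 under AZD and 7.43, 7.67 and 8.39 under Ento+AZD. Neither AZD nor Ento+AZD overlapped with DMSO, and Ento overlapped in both lines. NUF2 fell by 1.41 in SU-DHL-4 (SE 0.308, adjusted p = 0.0347) and by 1.33 in DG-75 (SE 0.298, adjusted p = 0.0447) under Ento+AZD, and was called in 8 of 15 and 5 of 15 fits with arrays left out.

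SPC25 and SPC24 form the other end of the complex, which docks on the inner kinetochore. SPC25 gave 6.92, 6.96 and 7.49 under DMSO, 7.39, 5.96 and 7.31 under Ento, 6.03, 6.34 and 6.52 under AZD and 5.88, 4.16 and 6.34 under Ento+AZD in SU-DHL-4. The DG-75 arrays were 7.95, 7.09 and 7.98 under DMSO, 7.74, 7.68 and 7.39 under Ento, 6.08, 7.13 and 6.94 under AZD and 5.76, 6.50 and 7.06 under Ento+AZD. Ento+AZD was below DMSO without overlap in both lines, by a narrow margin in DG-75, where AZD replicate 2 was above DMSO replicate 2. SPC25 fell by 1.67 in SU-DHL-4 (SE 0.347, adjusted p = 0.0286), which is 3.17-fold lower. That value leaned on Ento+AZD replicate 2, without which the change was -1.19, or 2.28-fold lower, and smaller than that of HJURP (-1.37). The change of SPC25 in DG-75 was -1.23 (SE 0.334, adjusted p = 0.0854). SPC24 had changes of -0.88 (adjusted p = 0.0248, under the fold change minimum) and -0.50 (adjusted p = 0.0576).

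**Figure D2:**
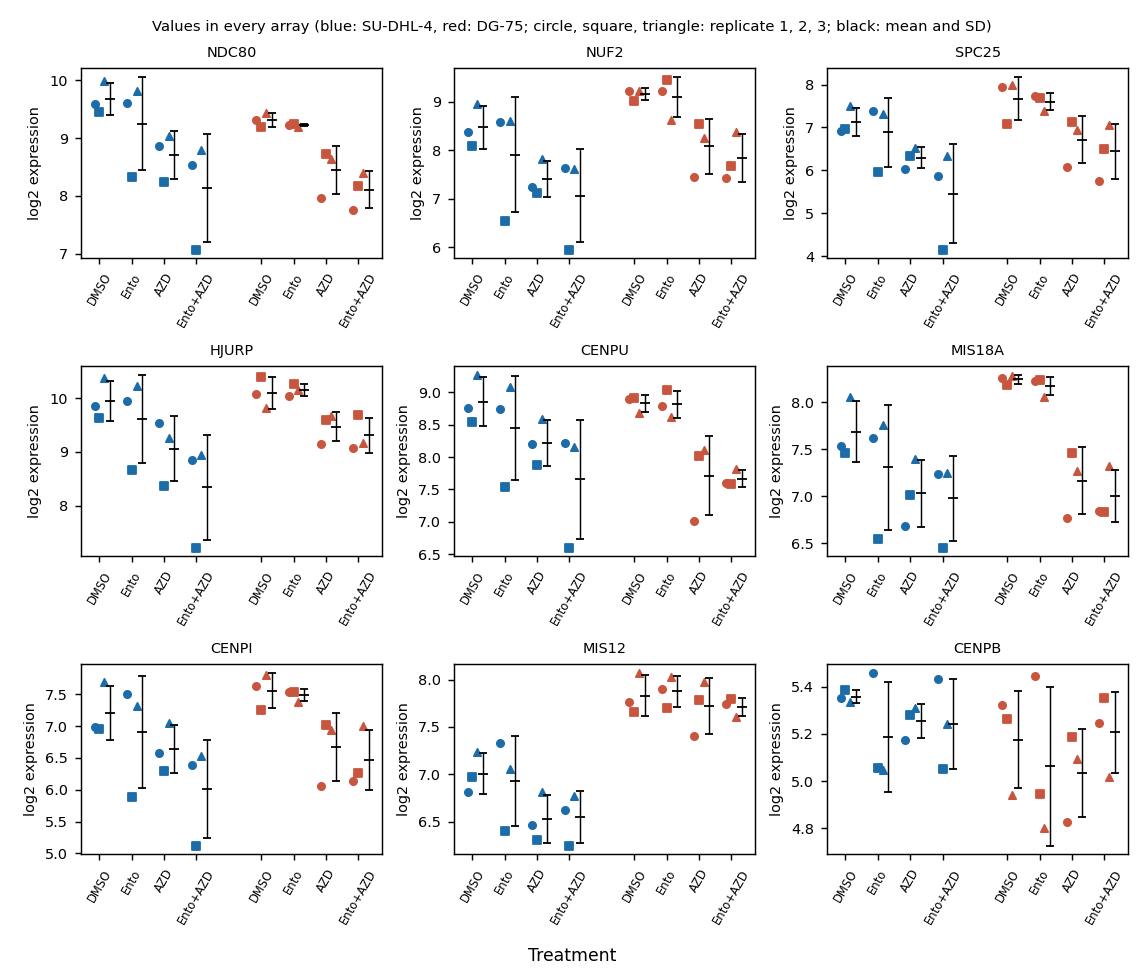
Log2 expression (vertical) of 9 genes in every array by treatment (horizontal), with blue points for SU-DHL-4, red points for DG-75, a marker shape for each replicate number, and black bars for the mean and SD of 3 arrays. In NDC80 all AZD and Ento+AZD points lie below the DMSO points, in SPC25 the lowest point is Ento+AZD replicate 2 of SU-DHL-4 at 4.16, and in CENPB the groups overlap.

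The Ska complex tracks microtubule ends together with the Ndc80 complex. SKA1 went from 7.32, 7.31 and 7.82 to 6.38, 4.70 and 6.76 in SU-DHL-4 and from 8.46, 7.80 and 8.50 to 6.80, 7.16 and 7.54 in DG-75 between DMSO and Ento+AZD. SKA3 went from 7.52, 7.37 and 7.82 to 6.70, 5.51 and 7.37 in SU-DHL-4, and from 7.99, 7.13 and 7.87 to 6.61, 6.74 and 7.10 in DG-75. SKA1 did not overlap in either line, whereas SKA3 of SU-DHL-4 met at 7.37, its highest Ento+AZD and lowest DMSO array, and that of DG-75 was separated by a narrow gap. In SU-DHL-4, SKA1 fell by 1.53 (SE 0.325, adjusted p = 0.0303) and SKA3 by 1.04 (SE 0.244, adjusted p = 0.0459). The SKA3 call was kept in 3 of 15 fits with arrays left out. In DG-75 the changes were -1.09 (adjusted p = 0.0714) and -0.85 (adjusted p = 0.0936), and that of SKA1 passed in 4 of 9 other alternatives. SKA2 changed by -0.66 and -0.47 (adjusted p = 0.0524 and 0.151).

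CENPE, a kinesin that carries chromosomes to the spindle equator, and CENPF, a large protein of the outermost kinetochore layer, were called in SU-DHL-4. CENPE read 8.82, 8.50 and 9.08 under DMSO and 8.07, 6.94 and 8.05 under Ento+AZD there, and 8.69, 8.66 and 8.84 against 7.55, 8.22 and 8.13 in DG-75. CENPF read 8.89, 8.71 and 9.28 against 8.34, 6.46 and 8.46 in SU-DHL-4, and 9.49, 9.37 and 9.35 against 8.12, 8.81 and 8.46 in DG-75. No group overlapped with its control. CENPE fell by 1.12 (SE 0.214, adjusted p = 0.0193) and CENPF by 1.21 (SE 0.259, adjusted p = 0.0323) in SU-DHL-4. The DG-75 changes of -0.76 (adjusted p = 0.0423) and -0.94 (adjusted p = 0.0244) stayed under the fold change minimum.

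The Mis12 complex joins the inner centromere to the Ndc80 complex, and its 4 genes were called in no comparison between treatments. MIS12 was 6.81, 6.97 and 7.24 under DMSO and 6.63, 6.25 and 6.78 under Ento+AZD in SU-DHL-4, and 7.77, 7.65 and 8.07 against 7.74, 7.79 and 7.61 in DG-75. PMF1 was 7.26, 7.38 and 7.64 against 7.45, 6.91 and 7.36 in SU-DHL-4, and 8.11, 7.99 and 8.10 against 7.94, 7.64 and 7.84 in DG-75. The groups overlapped for MIS12 in DG-75 and for PMF1 in SU-DHL-4. The changes of MIS12 were -0.45 (95% interval -0.85 to -0.05) and -0.12 (95% interval -0.47 to 0.24), and those of PMF1 were -0.19 (95% interval -0.58 to 0.20) and -0.26 (95% interval -0.54 to 0.01). PMF1 shares its locus with the read-through gene PMF1-BGLAP, and whether the probes of its row separate the transcripts is not given in the sources used here, so its value is uncertain. DSN1 changed by -0.86 and -0.72 (adjusted p = 0.0894 and 0.0378) and NSL1 by -0.30 and -0.26 (adjusted p = 0.499 and 0.357). The remaining outer genes KNL1, ZWINT and ZWILCH, which scaffold or recruit checkpoint proteins, changed by -0.66 to -0.28 in SU-DHL-4 and by -0.90 to -0.61 in DG-75 and were not called.

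Of the shugoshins, SGO2 had the larger change. It was 6.62, 6.37 and 7.14 under DMSO, 6.71, 4.96 and 6.46 under Ento, 5.04, 5.37 and 6.04 under AZD and 5.77, 4.18 and 5.75 under Ento+AZD in SU-DHL-4. In DG-75 it was 7.19, 6.52 and 7.10, then 7.11, 6.90 and 6.42, then 5.63, 6.67 and 6.21, and 5.19, 5.30 and 6.26 in the same order of treatments. Ento+AZD did not overlap with DMSO in either line, and AZD overlapped with it in DG-75 but not in SU-DHL-4. SGO2 fell by 1.48 in SU-DHL-4 (SE 0.317, adjusted p = 0.0322), and its change of -1.35 in DG-75 missed the threshold (SE 0.336, adjusted p = 0.0638). It passed in 3 of 15 fits with arrays left out and in 5 of 9 other alternatives, among them the model without the replicate block (adjusted p = 0.0398). SGO1 went from 8.76, 8.78 and 9.29 to 8.53, 7.62 and 8.57 in SU-DHL-4 and from 8.85, 8.61 and 9.00 to 7.58, 7.74 and 8.26 in DG-75. Its groups did not overlap, with changes of -0.71 (adjusted p = 0.163) and -0.96 (adjusted p = 0.0474).

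**Figure D3:**
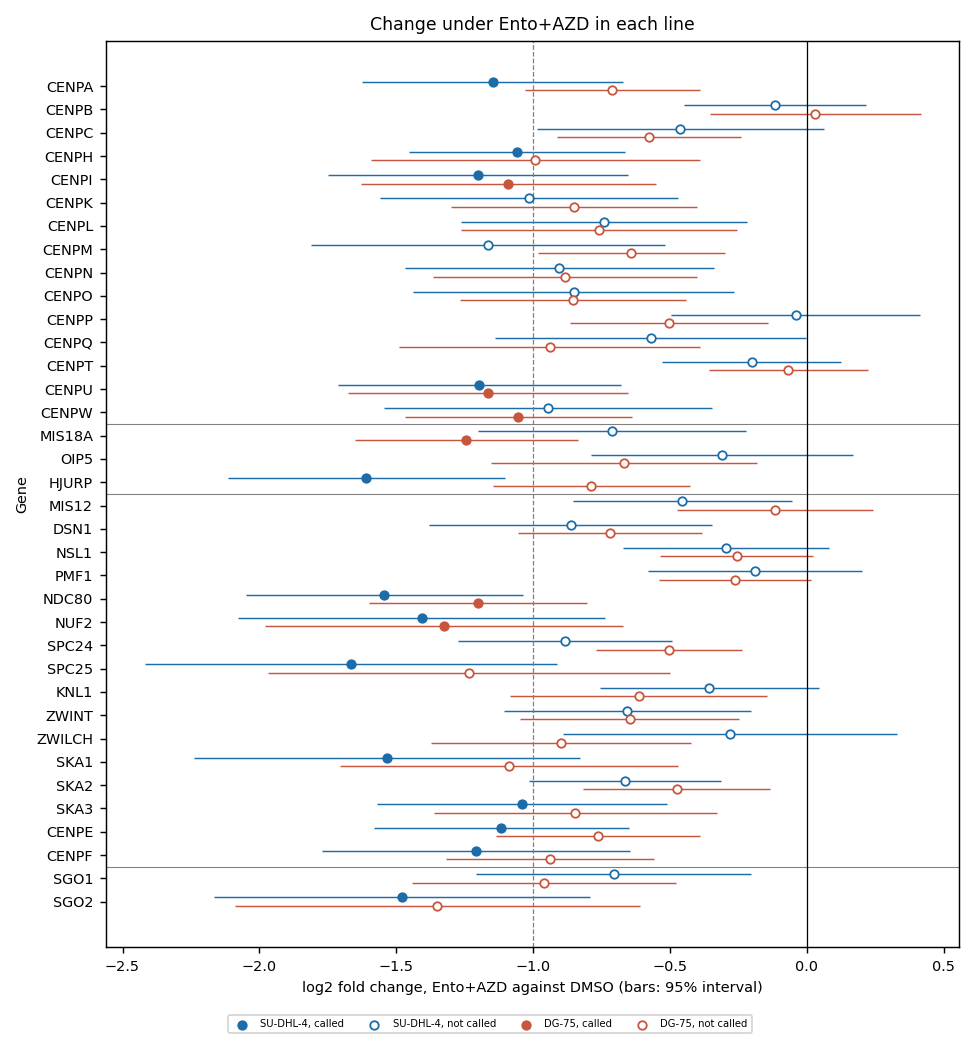
Log2 fold change of each of the 36 genes under Ento+AZD against DMSO (horizontal) with its 95% interval, in blue for SU-DHL-4 and red for DG-75, filled where called. The dashed line marks a fold change of 2, and the points run from -1.67 (SPC25) to -0.04 (CENPP) in SU-DHL-4 and from -1.35 (SGO2) to 0.03 (CENPB) in DG-75.

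Inner centromere, loading and outer kinetochore genes were then set side by side. Under Ento+AZD in SU-DHL-4 the class medians were -0.90 for the inner centromere with 4 of 15 called (1.09% of all rows lower), -0.71 for loading with 1 of 3 called and -0.87 for the outer kinetochore with 7 of 16 called, and -1.09 for the shugoshins with 1 of 2 called. In DG-75, where 0.708% of all rows were called lower, they were -0.85 with 3 of 15 called, -0.79 with 1 of 3 called, -0.74 with 2 of 16 called and -1.15 with 0 of 2 called. Without Ento+AZD replicate 2 the SU-DHL-4 medians were -0.67, -0.62, -0.68 and -0.85 in the same order, and with Ento replicate 2 omitted as well -0.54, -0.51, -0.61 and -0.73. No test of a difference between classes was run. Genes of the inner centromere and of the outer kinetochore ranged more widely than the medians of the classes. Within the outer kinetochore of SU-DHL-4 the Ndc80 complex ranged from -1.67 to -0.88 with 3 of 4 called and the Mis12 complex from -0.86 to -0.19 with 0 of 4 called. Without Ento+AZD replicate 2 the Ndc80 complex ranged from -1.28 to -0.71 with 0 of 4 called and the Mis12 complex from -0.65 to -0.10 with 0 of 4 called, beside 0.266% of all rows. With Ento replicate 2 omitted as well they ranged from -1.18 to -0.66 with 2 of 4 called and from -0.56 to -0.03 with 0 of 4 called, beside 0.508% of all rows. In DG-75 the ranges were -1.33 to -0.50 with 2 of 4 called and -0.72 to -0.12 with 0 of 4 called. Within the inner centromere the CENP-H/I/K/M group ranged from -1.20 to -1.02 in SU-DHL-4, or -0.91 to -0.62 with both arrays omitted, and from -1.09 to -0.64 in DG-75, while CENPB and CENPT stayed between -0.20 and 0.03.

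**Figure D4:**
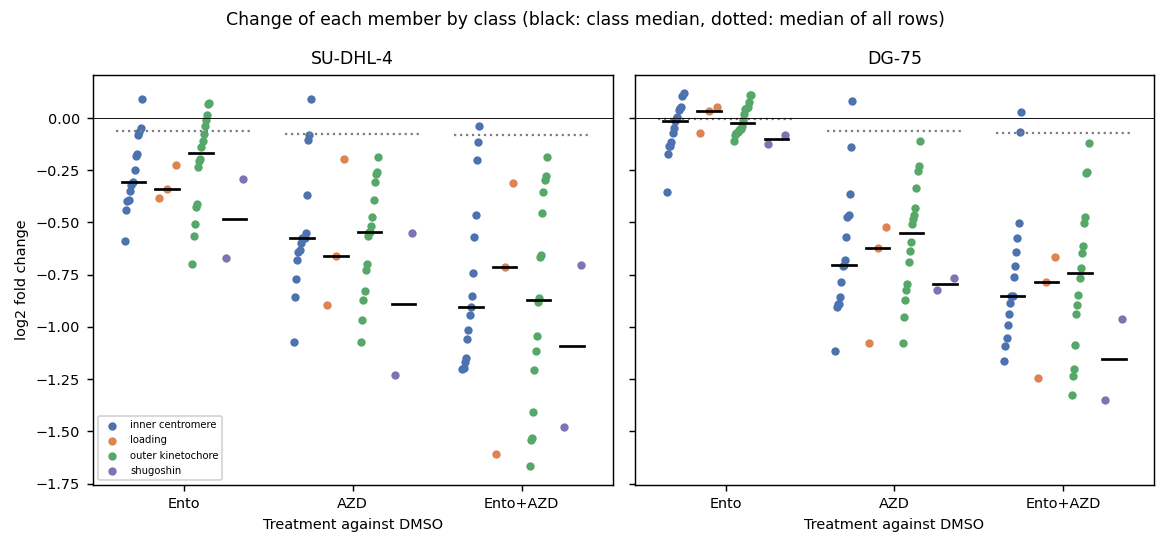
Log2 fold change against DMSO (vertical) of each gene by treatment (horizontal) and class (colour), with black bars for class medians and dotted lines for the median of all rows, for SU-DHL-4 on the left and DG-75 on the right. Under Ento+AZD the class medians lie between -1.09 and -0.71 in SU-DHL-4 and between -1.15 and -0.74 in DG-75, below the dotted lines at -0.08 and -0.07.

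The combination was compared with each agent to ask what the partner added. Against Ento, limma called 0 of the 36 genes in SU-DHL-4 (0.0704% of all rows lower, 20 of 36 at an unadjusted p under 0.05, beside 9.67%), with a median difference of -0.60. Single arrays moved both values. With Ento+AZD replicate 2 omitted the median was -0.39 and 11 of 36 genes had an unadjusted p under 0.05 (6.93% of all rows), with Ento replicate 2 omitted -0.78 and 28 of 36 (10.8%), and with both omitted -0.58 and 24 of 36 (9.29%). In DG-75 it called 4 genes lower (11.1%, beside 0.598% of all rows), MIS18A (-1.17, adjusted p = 0.0199), NDC80 (-1.12, adjusted p = 0.0211), CENPW (-1.10, adjusted p = 0.0243) and CENPU (-1.15, adjusted p = 0.0366), and the median difference was -0.80. That count was 12 when Ento replicate 3 was omitted, 2 when Ento+AZD replicate 3 was omitted, and 0 when any other Ento or Ento+AZD array was. Shares of all rows in these fits are not given here, so the counts describe only how stable the calls were. Against AZD, limma called 0 genes in SU-DHL-4 (0.00391% of all rows lower, 8 of 36 at an unadjusted p under 0.05, beside 7.03%), where the median difference was -0.28 and the smallest adjusted p was 0.573 for HJURP. Among the 8, CENPC was higher under Ento+AZD (0.61). The 8 genes rested on Ento+AZD replicate 2. Without it the count at an unadjusted p under 0.05 was 0 of 36 (6.06% of all rows) and the median -0.10. With Ento replicate 2 omitted as well it was 0 of 36 (7.59%) and the median 0.01. In DG-75 limma called 0 genes against AZD, beside 0% of all rows lower, with 0 of 36 at an unadjusted p under 0.05 (4.03% of all rows) and a median difference of -0.15. The 95% intervals of these differences had a median half-width of 0.51 for SU-DHL-4 and 0.41 for DG-75. Between the single agents, limma called 0 genes in SU-DHL-4 (0.36% of all rows lower, 6 of 36 at an unadjusted p under 0.05, beside 9.77%), with a median difference, AZD less Ento, of -0.29 and 32 of 36 below 0. This comparison rested on Ento replicate 2, without which 18 of 36 genes had an unadjusted p under 0.05 (11.1% of all rows), the median was -0.51 and 0 genes were called. With Ento+AZD replicate 2 omitted as well the count was 29 of 36 (13.2%), the median -0.58 with 36 of 36 below 0, and CENPF was called alone (-1.04, adjusted p = 0.0465). In DG-75 limma called MIS18A, lower under AZD by 1.01 (difference -1.01, adjusted p = 0.044), 1 of 36 beside 0.328% of all rows. That DG-75 count was 0 in 11 of 15 fits with arrays left out and 7 without Ento replicate 3.

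Departure from additivity was taken as the change under Ento+AZD less the summed changes under Ento and AZD. In SU-DHL-4 limma called 0 of 36 genes (0% of all rows lower), with 1 gene, CENPC, at an unadjusted p under 0.05 (0.92, adjusted p = 0.96), beside 4.99% of all rows, and the values ran from -0.60 (SPC25) to 0.92 with a median of 0.01. Omission of Ento replicate 2 gave a median of -0.19, that of Ento+AZD replicate 2 gave 0.14, and that of both gave -0.03. In DG-75 limma called 0 genes (0% of all rows lower), with 0 at an unadjusted p under 0.05 (2.63% of all rows), and the values ran from -0.46 (SGO2) to 0.28 (CENPB) with a median of -0.12. The 95% intervals had a median half-width of 0.72 for SU-DHL-4 and 0.58 for DG-75.

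With both lines in 1 fit, 10 of the 36 genes (27.8%) were called lower under Ento+AZD, beside 0.813% of all rows, and 27 of 36 passed the adjusted p alone, beside 7.03%. NDC80 had the smallest adjusted p (-1.37, SE 0.152, adjusted p = 2.57e-05), and HJURP (-1.20, adjusted p = 0.000112) and CENPF (-1.07, adjusted p = 0.000171) followed among the calls. CENPU (-1.18), CENPI (-1.15), NUF2 (-1.37), SGO2 (-1.41), SPC25 (-1.45), CENPH (-1.02) and SKA1 (-1.31) had adjusted p between 0.000403 and 0.00105. All 10 were lower in 6 of 6 same-numbered differences. CENPI, CENPU, NDC80, NUF2, SPC25, SKA1 and SGO2 were called in 30 of 30 fits with arrays left out, HJURP in 29, CENPF in 27 and CENPH in 23, and the count stayed between 7, with all arrays numbered 2 of SU-DHL-4 omitted, and 15. In the 9 other alternatives CENPF and CENPH were each called in 6. Both were lost under quantile normalization (-0.95 and -0.91), with array medians subtracted (-0.96 and -0.92) and with the Ento and Ento+AZD arrays numbered 2 of SU-DHL-4 omitted (-0.87 and -0.93), where the fold change stayed under the minimum, and the other 8 were called in all 9. The 9 genes that did not reach an adjusted p under 0.05 were CENPB, CENPC, CENPP, CENPT, OIP5, MIS12, NSL1, PMF1 and ZWILCH. Under AZD 22 of 36 genes passed the adjusted p alone, beside 4.29% of all rows, and NUF2 was the 1 gene called (2.78%, beside 0.25% of all rows), with -1.07 (SE 0.228, adjusted p = 0.00924), lower in 6 of 6. That call was lost in 5 of 30 fits with arrays left out, namely when SU-DHL-4 DMSO replicate 2, SU-DHL-4 AZD replicate 1, DG-75 AZD replicate 1, all arrays numbered 3 of SU-DHL-4 or all arrays numbered 1 of DG-75 were omitted, and 5 genes were called when SU-DHL-4 AZD replicate 2 was. Under Ento limma called 0 genes (0% of all rows lower, 0 of 36 at an unadjusted p under 0.05, beside 6.36%).

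The responses of the lines were compared directly. For Ento+AZD limma called 0 of 36 differences (0.0235% of all rows lower), with 1 at an unadjusted p under 0.05 (6.51% of all rows), HJURP, whose change in SU-DHL-4 less that in DG-75 was -0.82 (95% interval -1.45 to -0.19, adjusted p = 0.586). For Ento and for AZD limma called 0 (0% of all rows lower for each), with 0 at an unadjusted p under 0.05 (4.43% and 6.16% of all rows). The median difference was -0.18 for Ento and 0.03 for AZD. Under Ento the median change of SU-DHL-4 was -0.24 with all arrays and -0.08 without Ento replicate 2, beside -0.03 in DG-75. With array medians subtracted the median difference for Ento was -0.08. Half-widths of the 95% intervals, which are not adjusted for the number of rows, had a median of 0.70. Differences between lines under that size were mostly not detectable with these arrays. Larger ones could be missed too, as the value of HJURP shows. MIS18A, called in DG-75 and not in SU-DHL-4, was not shown to differ between the lines. In untreated cells limma called 0 of the 36 genes between the lines (4.11% of all rows lower in SU-DHL-4, 5 of 36 at an unadjusted p under 0.05, beside 27.6%). Under the fold change minimum, 3 genes were lower in SU-DHL-4 at an adjusted p under 0.05, CENPO (-0.91, adjusted p = 0.0295), MIS12 (-0.82, adjusted p = 0.00647) and PMF1 (-0.65, adjusted p = 0.012), beside 9.84% of all rows. CENPO was named after its values were seen.

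Most of the 36 genes followed the mean of the others from array to array, SPC24 in DG-75 being the clearest exception once group means were removed. After group means were removed, a gene correlated with the mean of the other 35 genes at a median r of 0.95 over the 12 SU-DHL-4 arrays, from 0.41 (CENPC) to 0.99 (NUF2), and of 0.75 over the 12 DG-75 arrays, from -0.72 (SPC24) to 0.94. SU-DHL-4 had 35 genes with a value over 0.5 and DG-75 had 29, and in DG-75 PMF1 (0.22), HJURP (0.23) and CENPB (0.28) lay lowest after SPC24. SU-DHL-4 without the Ento and Ento+AZD arrays numbered 2 gave a median of 0.77, from -0.07 (CENPB) to 0.96. PMF1 and SPC24 were singled out after their values were seen. SPC24 varied little in DG-75, with an SD of 0.036 to 0.073 within its groups. With only the mean of the line removed it followed the others there at r = 0.81, and CENPB lay lowest (0.07). These values describe arrays that share groups and replicate numbers and carry no test. The spread between replicates of the 36 genes was wide where the arrays numbered 2 stood apart, with a median SD of 0.66 for SU-DHL-4 Ento and 0.63 for SU-DHL-4 Ento+AZD, beside 0.21 and 0.19 over all rows, and of 0.13 to 0.33 in the other 6 groups. In DG-75 the lowest arrays were AZD replicate 1 and Ento+AZD replicate 1, at -0.62 and -0.61 from the mean of the line.

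Other kinetochore and checkpoint genes were read from a list of 23, of which 22 had a row and CENPS had none. In SU-DHL-4, 6 of 22 were called lower under Ento+AZD, with a median of -0.85, and in DG-75 3 of 22, with a median of -0.76. A list of 20 genes of proliferation had 12 of 20 called lower in SU-DHL-4 with a median of -1.25 and 5 of 20 in DG-75 with a median of -0.86. The share of all rows called lower was 1.09% and 0.708%. Without Ento+AZD replicate 2 of SU-DHL-4 the counts were 0 of 22 and 0 of 20, with medians of -0.74 and -0.97 and 0.266% of all rows, and with Ento replicate 2 omitted as well they were 2 of 22 and 5 of 20, with medians of -0.63 and -0.86 and 0.508% of all rows. Neither list had a gene called higher with all arrays. Over both lines the smallest adjusted p values belonged to the mitotic kinase CDK1 (-1.43, adjusted p = 3.4e-05), the replication helicase subunit MCM6 (-1.19, adjusted p = 4.06e-05), the cyclin CCNA2 (-1.30, adjusted p = 5.39e-05), the helicase subunit MCM4 (-1.15, adjusted p = 7.21e-05), the transcription factor FOXM1 (-1.26, adjusted p = 7.5e-05), the kinase PLK1 (-1.12, adjusted p = 0.000113), the CENP-R gene ITGB3BP (-1.10, adjusted p = 0.00012) and the checkpoint gene BUB1B (-1.04, adjusted p = 0.000121). The proliferation list followed the same arrays, at -0.47 in SU-DHL-4 Ento replicate 2 and -1.53 in Ento+AZD replicate 2, against 0.58 and 0.81 in the other Ento arrays and -0.31 and -0.13 in the other Ento+AZD arrays. The part of proliferation in the changes of the 36 genes was not tested.

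RefSeq promoter windows of 300 bases, from 250 before to 50 after the start, were found for 31 of the 36 genes. The CHR letters TTTGAA, on either strand, stood in 12 of 31 (38.7%), beside 18.2% of 27305 genes with a window. They were in CENPA, CENPC, CENPF, CENPN, CENPO, HJURP, NDC80, NUF2, SKA1, SKA3, SPC25 and ZWINT, and 11 of 14 matches in 36 windows lay within 50 bases of the start, where the match of ZWINT counts in each of its overlapping windows. The share was the same in the shorter window of 150 bases before to 50 after the start, beside 11.5% of all genes. A CCAAT box stood in 20 of 31 (64.5%, beside 39.7%), and an E2F site, searched as TTTCGCGC or TTTGGCGC on both strands, in 2 of 31 (6.45%, beside 1.4%). By class the CHR was found in 4 of 12 inner centromere genes, 1 of 2 loading genes, 7 of 15 outer kinetochore genes and 0 of 2 shugoshins. Of the 12 genes with a CHR, 8 were called in SU-DHL-4 under Ento+AZD with a median of -1.18, and of the 19 without, 4 were called with a median of -0.66, beside 1.09% of all rows. These counts rested on single arrays, as did the calls of this comparison over all 36 genes. Without Ento+AZD replicate 2, 1 of 12 and 0 of 19 were called, with medians of -0.89 and -0.50, beside 0.266% of all rows. With Ento replicate 2 omitted as well they were 3 of 12 and 0 of 19, with medians of -0.80 and -0.40, beside 0.508%. In DG-75 2 of 12 and 3 of 19 were called, beside 0.708% of all rows, with medians of -0.87 and -0.72. SGO2 and CENPU, without a CHR in their windows, had changes of -1.48 and -1.20 in SU-DHL-4, so that genes with large changes stood in both groups. For the CCAAT box the order in SU-DHL-4 was the opposite, with 6 of 20 called and a median of -0.79 where it was found and 6 of 11 called and a median of -1.04 where it was not. With both arrays numbered 2 omitted these were 2 of 20 and -0.54, and 1 of 11 and -0.65. In DG-75 the medians were -0.82 and -0.85. LIN9, a subunit of the MuvB core and a member of the proliferation list, was named after its values were seen. It fell over both lines by 1.04 under Ento+AZD (adjusted p = 0.00225) and by 1.02 under AZD (adjusted p = 0.00697). All 20 genes of that list were lower over both lines under Ento+AZD at an adjusted p under 0.05, with a median of -1.05. LIN54, another MuvB subunit on the list, was not called in any comparison between treatments. The part of these promoter letters in the changes was not tested.

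**Figure D5:**
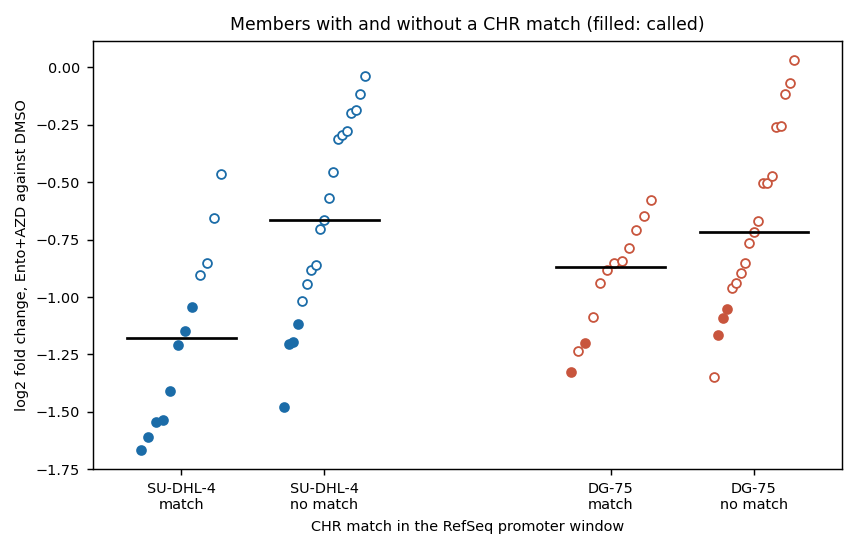
Log2 fold change under Ento+AZD against DMSO (vertical) of the 31 genes with a RefSeq promoter window, split by line and by a CHR match (horizontal), filled where called, with black bars for medians. In SU-DHL-4 the medians are -1.18 with a match and -0.66 without, in DG-75 they are -0.87 and -0.72, and the points of both groups overlap in each line.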

How the data were processed

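Gene expression of 24 Clariom D arrays was analysed from 1 table of log2 values deposited by the authors, whose methods give robust multi-array average (RMA) normalization and a mapping of transcript clusters to genes by affycoretools, with the pairs of probes and genes drawn from an annotation package for human Clariom arrays. RMA evens out probe intensities between arrays, so a shift of all transcripts would be removed. The versions of the tools and of that package and the genome build are not given in the sources used here. All per-sample columns were assigned by name (0 unused), no arrays held identical values, and no filter on low values was used, so all 36 genes entered the tests. The number of arrays limits the precision.

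Linear models of limma 3.58.1 with moderated variances (R 4.3.3) were fitted to each line alone over all rows, with the 4 treatments and the replicate number as a block, since the study's model has a batch term. The methods speak of a cell batch without saying which arrays shared one, and the replicate number was taken in its place. Comparisons between and over lines came from all arrays, with replicate number within line as a block, except that untreated lines were compared without it. P-values were adjusted by Benjamini-Hochberg over 25575 rows. The code was tested on simulated data that held no replicate offsets and no arrays that stood apart. That test does not show how the calls depend on such features. Genes printed in full were those called in any comparison between treatments, those of each class with the largest and smallest Ento+AZD change in each line, and any called between the lines (0 genes). From the lists of other kinetochore genes and proliferation genes the 8 with the smallest adjusted p were named. Marker lists were for B cells, T cells, monocytes, epithelium and fibroblasts, and 1 marker is not reported here. The genes and lists were chosen with earlier results of these data known. Motifs were searched with Python 3.11.15. The alternatives were other fits, scalings, filters and windows and the omission of each array and each replicate number. The omission of the SU-DHL-4 Ento and Ento+AZD arrays numbered 2 together was added after the data were seen.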

Additional observations from a re-analysis of the deposited data

How the results depend on the processing

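The counts of called genes depended on the model. Shares of all rows are not given for most alternatives, so these counts describe how stable the calls were. Without the replicate block the Ento+AZD count of SU-DHL-4 was 0 of 36 genes in place of 13, 0 under AZD over both lines in place of 1, and 2 for AZD against Ento in DG-75 in place of 1, while the count of 10 under Ento+AZD over both lines was unchanged. The correlation of deviations from group means was over 0.1 in 12 of 18 same-numbered pairs in SU-DHL-4 (-0.111 to 0.394, median 0.15, beside -0.069 over 36 other pairs) and in 7 of 18 in DG-75 (-0.355 to 0.344, median 0.04, beside -0.014), so pairing by number did not hold in every pair. With 1 fit of all 24 arrays the counts were 1 for AZD and 3 for Ento+AZD against Ento in SU-DHL-4 (0 each in the separate fit), and 2 for AZD and 2 for AZD against Ento in DG-75. A fit of the 2 treatments compared gave 0 in DG-75 for AZD, for Ento+AZD against Ento and for AZD against Ento. Omission of rows under the median gave 2 for Ento+AZD against Ento in SU-DHL-4, and 2 for AZD and 2 for AZD against Ento in DG-75. Quantile normalization gave 0 for AZD, 2 for Ento+AZD against Ento and 0 for AZD against Ento in DG-75 and 0 for AZD over both lines. Subtraction of array medians, which raised the median of all rows under Ento+AZD in SU-DHL-4 by 0.13, gave 8 there, 2 in DG-75, 0 for AZD and 0 for AZD against Ento in DG-75 and 0 for AZD over both lines. The medians of the 36 genes were then -0.74 and -0.73. A prior variance following the level gave 1 for AZD and 5 for Ento+AZD against Ento in SU-DHL-4, and 3 for AZD, 8 for Ento+AZD against Ento and 2 for AZD against Ento in DG-75. With no fold change minimum the counts in DG-75 were 13 for Ento+AZD and 7 for Ento+AZD against Ento, beside 1.87% and 1.44% of all rows lower. Over both lines they were 22 for AZD and 27 for Ento+AZD, beside 4.29% and 7.03%. Between untreated lines the count was 3, beside 9.84%. With an array or replicate number left out, counts ranged from 0 to 14 for Ento+AZD, 0 to 1 for AZD and 0 to 4 for Ento+AZD against Ento in SU-DHL-4, from 0 to 8, 0 to 2 and 0 to 12 for the same in DG-75, from 0 to 7 for AZD against Ento in DG-75, from 0 to 5 for AZD and 7 to 15 for Ento+AZD over both lines, and from 0 to 1 between untreated lines. Class medians in SU-DHL-4 ranged from -1.09 to -0.57 for the inner centromere and for the outer kinetochore, from -0.92 to -0.56 for loading and from -1.37 to -0.80 for the shugoshins, and in DG-75 from -0.99 to -0.63 for the inner centromere and from -1.44 to -0.92 for the shugoshins. CENPB turned in SU-DHL-4 to 0.0143 (quantile) and 0.0142 (medians subtracted) and over both lines to 0.0657 and 0.0664, and CENPP in SU-DHL-4 to 0.0891 and 0.0895. MIS12 turned in DG-75 to 0.0126 (quantile). With arrays left out CENPB ran from -0.0778 to 0.0163 over both lines and from -0.0233 to 0.0841 in DG-75, CENPP from -0.248 to 0.23 and OIP5 from -0.589 to 0.0063 in SU-DHL-4, and MIS12 from -0.244 to 0.0553 in DG-75. With the SU-DHL-4 Ento and Ento+AZD arrays numbered 2 omitted together, an alternative chosen after the data were seen, the counts of that line were 3 for Ento+AZD, 1 for AZD and 1 for AZD against Ento, and CENPP (0.2318) and OIP5 (0.0319) there and CENPB over both lines (0.0177) turned sign. The cause of these shifts was not tested. In the other results for single genes 1678 alternatives kept direction and side of the threshold, 258 lost the call and 51 gained one.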
